A study of Mus musculus with 16 samples.

Results

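The libraries compared here come from mouse embryonic stem cells of the E14TG2a line that ectopically expressed the histone demethylase KDM4A, either full-length or without an intrinsically disordered region (IDR). They were chosen by their labels: 2 libraries of IDR-deleted KDM4A and 2 of full-length KDM4A, 4 of the 16 libraries of the series. The titles call the deleted form del-cIDR and the genotype tag calls it del-IDR, and the residues removed are not given in the sources used here. All cells were grown in 1000 U/ml LIF, a cytokine that sustains self-renewal, with 1 µM PD0325901, a MEK inhibitor, and 3 µM CHIR99021, a GSK3 inhibitor. The other 12 libraries hold the same pair of forms for KDM4B, KDM6A and KDM6B, and no library of cells without a construct is among the 16. RNA came from the chromatin-associated fraction, was depleted of ribosomal RNA and was read with a stranded total-RNA kit. Chromatin-associated RNA holds nascent and retained transcripts, so introns, repeats and transcription past gene ends weigh more in it than in cytoplasmic RNA. Nothing in the labels tells if both libraries of a group stem from independent cultures or from 1 clone, so p-values measure the spread between these libraries, which may be technical.

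KDM4A is a JmjC-domain demethylase that removes methyl groups from lysine 9 and lysine 36 of histone H3. Methylated lysine 9 marks silent chromatin, including many retrotransposons, and methylated lysine 36 is laid down over the bodies of transcribed genes. IDRs are protein stretches without a fixed fold, and in chromatin proteins they can take part in condensates and in the choice of binding sites. The comparison asks how chromatin-associated RNA differs when this region is missing, across gene classes, gene architecture and repeats.

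The 4 libraries held 32739117 and 38093072 gene reads with the deletion and 42127164 and 48284314 without it, within the range of 32739117 to 54890756 over all 16. Of 56941 gene entries, 31057 had enough reads to be tested. Values are CPM, reads scaled to 1000000 effective gene reads by TMM, a method that centres the libraries on the typical gene. Fold changes are log2 of IDR-deleted over full-length with their standard error (SE), and p-values come from edgeR's quasi-likelihood test over all 16 libraries with Benjamini-Hochberg adjustment. A gene "rose" or "fell" only where its adjusted p was under 0.05. In all 31057 genes, 15673 (50.5%) passed this threshold, 7639 (24.6%) upward and 8034 (25.9%) downward, and the groups did not overlap in 22737 (73.2%). Every direction below is relative to the typical gene: the median over all genes was −0.05 with TMM and −0.70 when ERCC control RNAs, which stand in the table although the labels do not name them, set the library sizes. That scaling moves the named genes by a median of −0.65 on the log2 scale: 1464 genes then rose and 17766 fell, and positive medians below that size turn negative. Differences between strata of class, span, exon number, repeat share and promoter CpG stay within 0.01 of their value, as a nearly constant shift of all genes requires.

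Kdm4a itself gave 300.3 and 291 CPM in the IDR-deleted libraries and 217 and 205 CPM in the full-length libraries. The groups did not overlap, with a log2 fold change of 0.49 ± 0.04 SE (edgeR adjusted p 3.45e-12), or −0.17 with ERCC scaling. Reads of the construct and of the cell's own gene cannot be told apart in this table, 1 antisense gene overlaps the locus (chr4:117994154-118037240, GRCm39), and the reads therefore do not check the deletion. In the 12 libraries of the other demethylases Kdm4a was at 165 to 272 CPM, with KDM6B at 250.2 CPM or more, so the full-length KDM4A libraries lay within that range and these reads do not by themselves show the ectopic expression. Intronic repeat reads of Kdm4a, which a construct without introns would not add, were 41.4 and 40.2 CPM against 34.8 and 32.9 CPM, a log2 fold change of 0.27 ± 0.06. Kdm6a, the X-linked lysine 27 demethylase, fell from 136 and 139 CPM to 97.3 and 97.6 CPM. Kdm4b (log2 fold change −0.13 ± 0.07, edgeR adjusted p 0.102, but 0.0388 in a fit of the 4 libraries alone) and Kdm6b (0.00 ± 0.06, adjusted p 0.963) did not pass.

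Several measures of the whole library moved with the deletion. Genes detected numbered 34227 and 34569 with it and 36981 and 37960 without it. Detection depends on depth, and both IDR-deleted libraries had fewer gene reads than both full-length ones. The part of depth in this difference was not tested. Mitochondrial reads made up 0.357% and 0.411% against 0.199% and 0.233%, ribosomal protein genes 1.41% and 1.39% against 1.12% and 1.09%, Malat1, a nuclear noncoding RNA, 2.98% and 3.14% against 2.20% and 2.26%, and ERCC RNAs 1.11% and 1.05% against 0.775% and 0.794%. In the same order, repeat reads per 100 gene reads were 60.9 and 62.0 against 80.4 and 82.2. The part of these shifts in the results below was not tested. The libraries of a group correlated at 0.980 (IDR-deleted) and 0.985 (full-length) in log2 CPM across genes, which share both depth and scaling.

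The stem cell label was checked on markers, whose counts stand beside the 24.6% of all tested genes that rose and the 25.9% that fell. Pou5f1, the core pluripotency factor, gave 94.0 and 92.0 CPM against 77.8 and 75.2 CPM, and Nanog 153 and 152 CPM against 141 and 145 CPM. Of 10 naive markers 3 rose and 6 fell (Zfp42, a naive marker, from 897 and 814 CPM to 582 and 555 CPM), and their sum was 2361 and 2278 CPM against 2644 and 2516 CPM. Of the markers of other types, 8 of 10 for primitive endoderm rose, summing to 1169 and 1136 CPM against 797 and 734 CPM. For trophectoderm 8 of 9 tested rose, with a sum of 83.6 and 86.0 CPM against 36.1 and 35.3 CPM. For mesendoderm 5 of 7 rose, with a sum of 19.1 and 18.9 CPM against 8.75 and 9.61 CPM. For neural cells 5 of 8 tested rose and 1 fell, summing to 156 and 146 CPM against 141 and 142 CPM. For fibroblasts 3 of 5 tested rose, almost all of whose sum is Fn1, while Lum was at 0 in all 4 libraries and Col3a1, Dcn and Postn stayed at 0.186 CPM or less. For 2-cell-like cells 7 of 8 fell, from a sum of 236 and 223 CPM to 63.1 and 65.5 CPM. A median of 1.13 for primitive endoderm and of 1.17 for trophectoderm stayed above 0 with ERCC scaling (0.48 and 0.52), whereas that of fibroblast and neural markers turned negative. The share of these cells in the bulk RNA was not measured, and more cells of a type cannot be told apart from more RNA per cell.

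The gene classes went different ways. Protein-coding genes leaned upward: of 17290 tested among 21800 entries, 38% rose and 24.1% fell, with a median log2 fold change of 0.12. Long noncoding genes leaned downward, with 7.77% rising and 29.4% falling among 5035 tested of 9898 entries and a median of −0.38. Pseudogenes (3995 of 13284 entries; 8.91% rose, 25.8% fell, median −0.41) and TEC entries (2008 of 3214; 8.76% rose, 40.1% fell, median −0.48) did the same. TEC is the annotation's class for transcribed regions that await experimental evidence of a gene, and nearly all of them, 1995 tested, have 1 exon. Of 1767 tested entries without a class 5.89% rose and 23.2% fell. In the immunoglobulin and T-cell receptor class, which embryonic stem cells do not rearrange, 39 of 702 entries were tested, 18 fell and 1 rose.

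Classes were also set beside one another at like expression. Genes were split into quintiles by mean CPM over all tested genes. In quintile 4 the median was −0.38 for 519 long noncoding genes, −0.35 for 433 TEC entries, −0.04 for 247 pseudogenes and 0.12 for 4845 protein-coding genes. In the highest quintile it was −0.32, −0.33, −0.06 and 0.19 for the same classes. From the lowest to the highest quintile the medians were −0.70, −0.33, −0.28, −0.04 and −0.06 for pseudogenes and −0.32, 0.02, 0.06, 0.12 and 0.19 for protein-coding genes. In long noncoding genes the percentage that fell climbed with expression quintile, from 10.6% to 61.4%. Their medians did not become lower, at −0.46, −0.38, −0.33, −0.38 and −0.32 from the lowest to the highest quintile. The part of read depth in the climb of the percentage was not tested. Among 1523 long noncoding genes that no other gene overlaps the median was −0.54, against −0.33 for the 3512 overlapped ones, whose reads can come from a neighbour because strand was ignored in counting. Longer long noncoding genes had lower medians, from −0.25 in the shortest quintile of span to −0.51 in the longest.

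Named noncoding genes spanned both directions. Neat1, the RNA scaffold of paraspeckles (chr19:5874736-5895898), gave 414 and 422 CPM in the IDR-deleted libraries and 945 and 962 CPM in the full-length libraries. It fell by 1.19 ± 0.03 on the log2 scale (edgeR adjusted p 1.53e-27), and 4 other entries overlap it. Kcnq1ot1, the imprinted antisense RNA of the Kcnq1 domain, fell to 619.6 and 644 CPM from 1997 and 2068 CPM. In contrast, Crnde (27.9 and 26.1 CPM against 12.6 and 13.2 CPM) and Anxa11os (14.4 and 15.0 CPM against 4.91 and 3.60 CPM) rose, by 1.07 ± 0.10 and 1.79 ± 0.16. Anxa11os overlaps a gene on the other strand, so its reads and that gene's cannot be separated. Among pseudogenes Btnl7-ps, a butyrophilin-like locus, was at 81.8 and 80.8 CPM against 27.3 and 29.4 CPM, and Zscan4a, a copy in the Zscan4 cluster, at 15.8 and 17.4 CPM against 66.4 and 59.3 CPM. Near-identical copies of that cluster can share reads, so the value of any 1 copy is uncertain. The TEC entry C79130 was at 2.91 and 2.33 CPM against 18.1 and 18.3 CPM, a log2 fold change of −2.79 ± 0.14.

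Small RNA genes seldom passed, 42 of 923 tested upward and 116 downward. The direction went with expression: from the lowest to the highest quintile the medians were −0.49, −0.16, 0.03, 0.53 and 0.63. In the highest quintile 9 of 45 rose and 0 fell, and in the lowest 4 of 350 rose and 35 fell. By type, 4 of 225 snRNA genes rose and 35 fell, 9 of 297 snoRNA genes rose and 25 fell, and 20 of 364 microRNA genes rose and 53 fell. The small scaRNA group, guides for modification of spliceosomal RNAs in Cajal bodies, leaned the other way, with 6 of 18 rising and 2 falling and a median of 1.12. Its Scarna6 gave 164 and 172 CPM against 77.0 and 74.8 CPM (1.15 ± 0.06, edgeR adjusted p 8.69e-14), above 0 also with ERCC scaling (0.49). The small RNA share of gene reads was higher in replicate 2 than in replicate 1 in all 8 groups of the series. In summed CPM the second library of each group exceeded the first for snoRNA genes, 6654 and 11035 CPM with the deletion against 4305 and 7667 CPM without it, so the groups overlap. The mitochondrial ribosomal RNA mt-Rnr2, grouped here by the annotation, was at 2421 and 2859.6 CPM against 979.8 and 1210.3 CPM. All 13 of the 21 tested mitochondrial genes that passed rose, with a median of 0.69.

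**Figure D1:**
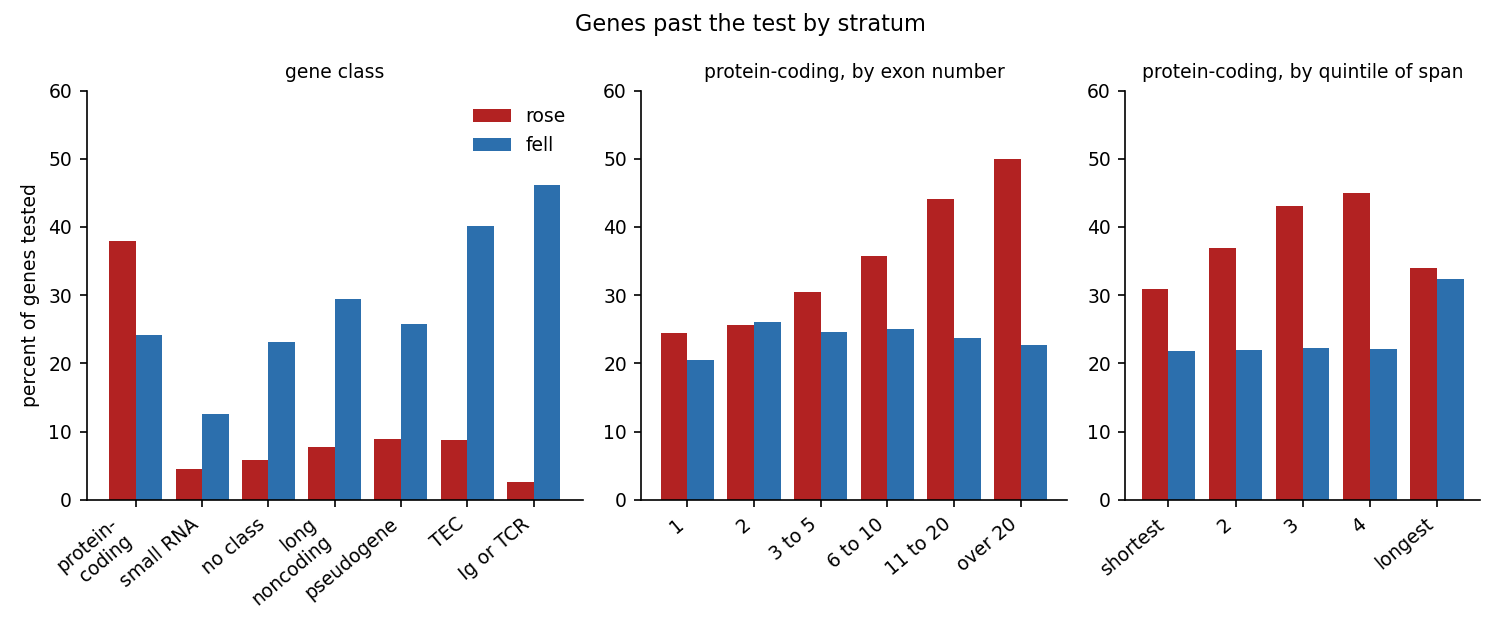
Percentage of tested genes that rose (red) or fell (blue) with IDR-deleted against full-length KDM4A, by gene class (left), by number of exons of protein-coding genes (middle) and by quintile of genomic span of protein-coding genes (right), edgeR adjusted p under 0.05, 2 libraries per group, TMM scaling. Falls outnumber rises in every class but protein-coding genes, and rises go from 24.4% at 1 exon to 49.9% above 20 exons, while with ERCC scaling most changes are falls.

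Within protein-coding genes the share that rose climbed with exon number. Exons of a gene that overlap or adjoin were merged and counted as 1, so 1 exon here need not mean an unspliced gene. It was 24.4% of 705 genes with 1 exon, 25.6% of 941 with 2, 30.4% of 3482 with 3 to 5, 35.7% of 4860 with 6 to 10, 44.0% of 4837 with 11 to 20 and 49.9% of 2465 with over 20. The share that fell stayed between 20.6% and 26.1% across these groups. Medians went from 0.09 at 1 exon and 0.00 at 2 exons to 0.19 above 20 exons. Read depth moved with exon number, from a median of 2.06 CPM at 1 exon to 70.7 CPM above 20 exons, and its part in these shares was not tested. In genes that no other gene overlaps 55.1% of those with over 20 exons rose and 16.4% fell.

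Genomic span, the distance from gene start to gene end, gave no such climb. The 4 shorter quintiles of span, up to 68069 bases, had medians of 0.12, 0.13, 0.17 and 0.17, and 22.3% or fewer of their genes fell. In the longest quintile, from 68070 to 2960900 bases, the median was 0.02, 34.0% rose and 32.4% fell. Among genes without overlap the longest quintile had a median of 0.14, with 42.7% rising and 24.8% falling, so the drop in long genes was smaller there. Exon number and span pulled apart within one another. Genes with over 20 exons had medians of 0.42, 0.38 and 0.30 in span quintiles 2, 3 and 4 and 0.08 in the longest. Genes of the longest quintile with only 3 to 5 exons, which are mostly intron, had a median of −0.45: 13 of 124 rose and 50 fell.

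**Figure D2:**
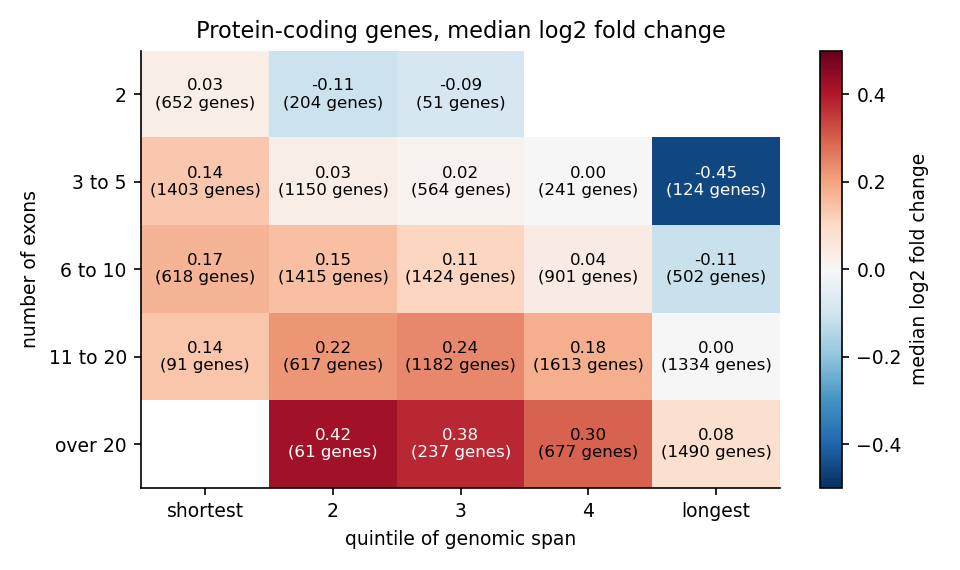
Median log2 fold change of protein-coding genes (IDR-deleted over full-length KDM4A, TMM scaling) by number of exons (vertical) and quintile of genomic span (horizontal), with the number of genes, blank where few genes fall. Medians run from −0.45 in long genes with 3 to 5 exons to 0.42 in shorter genes with over 20 exons, and every one of them is below 0 with ERCC scaling.

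Genes with many exons that rose included Smc5 (26 exons, 67.4 kb), a core subunit of the SMC5/6 complex. It gave 964 and 977 CPM against 456 and 445 CPM, with groups far apart and a log2 fold change of 1.11 ± 0.03 (edgeR adjusted p 4.64e-26). Nrd1, a metalloendopeptidase with 32 exons, was at 506 and 515 CPM against 222 and 214 CPM. Itpr1, the inositol trisphosphate receptor that releases calcium from the endoplasmic reticulum (64 exons, 338 kb), was at 955 and 925 CPM against 447 and 427 CPM. Smarca2, an ATPase of BAF chromatin remodelling complexes (51 exons), rose most steeply of these, from 19.4 and 17.4 CPM to 68.4 and 68.8 CPM, or 1.90 ± 0.07.

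Long or exon-rich genes also fell. Ttn, the giant sarcomere protein titin (345 exons, 279 kb), was at 532 and 524 CPM against 1473 and 1457 CPM, a log2 fold change of −1.47 ± 0.03 (edgeR adjusted p 1.95e-31). Ddr2, a collagen-binding receptor tyrosine kinase, was at 61.0 and 64.2 CPM against 179 and 168 CPM. Trps1, a GATA-type repressor, was at 216 and 215 CPM against 495 and 483 CPM. In each of the 3 genes both IDR-deleted libraries lay below both full-length libraries.

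Among genes with 1 exon after merging, which can still have spliced transcripts, 2 stress and early-response genes rose. These were Hspa1b (34.8 and 30.1 CPM against 7.12 and 8.33 CPM, 2.07 ± 0.12) and Jun (32.9 and 28.0 CPM against 10.7 and 10.8 CPM, 1.50 ± 0.10). Marveld1 (6.52 and 7.09 CPM against 25.3 and 24.7 CPM) and Dnase1 (12.5 and 11.2 CPM against 38.3 and 34.4 CPM) fell. In the shortest quintile of span Ptma, which encodes prothymosin alpha, rose (864 and 915 CPM against 398 and 394 CPM), and the inflammasome adaptor Pycard fell (23.8 and 22.9 CPM against 76.3 and 81.5 CPM). Txnip, a thioredoxin-binding regulator of glucose uptake, was at 531 and 548 CPM against 149 and 154 CPM. Jun, Dnase1, Pycard and Txnip each overlap a gene on the other strand.

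Protein-coding genes with most of their exonic bases in repeats had lower fold changes. With no repeat base in their exons 29.9% of 2552 genes rose and 19.7% fell, with a median of 0.09, and with repeats in up to 0.25 of the exonic bases 40.6% of 13375 rose and 23.7% fell, with a median of 0.15. Where over 0.5 of the exonic bases lay in repeats, 47 of 278 rose and 143 fell, with a median of −0.41, and between 0.25 and 0.5 the median was −0.06. The lowest group held Vmn2r79, a vomeronasal pheromone receptor gene with 68.2% of its exonic bases in repeats, at 0.320 and 0.274 CPM against 12.8 and 12.8 CPM. It also held Spats1, a testis gene at 15.0 and 13.6 CPM against 72.0 and 75.8 CPM. Both fell, by 5.41 ± 0.21 and 2.37 ± 0.06 on the log2 scale. Zfp773, a zinc finger gene of the same group, rose instead, from 17.99 and 16.9 CPM to 60.1 and 58.2 CPM.

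Genes also differed by the CpG content of their promoters. CpG-rich promoters mostly belong to broadly expressed genes and are largely free of DNA methylation, whereas CpG-poor ones often belong to tissue-restricted genes. Promoter windows of RefSeq (GRCm38.p6, 250 bases before to 50 after each start) matched 13299 tested protein-coding genes by symbol and gave tertiles by the ratio of observed to expected CpG. In the CpG-poor tertile 21.8% rose and 29.3% fell, with a median of −0.10. In the middle and CpG-rich tertiles 45.5% and 48.6% rose, 20.8% and 21.5% fell, and both medians were 0.20. The difference was widest at low expression, with medians of −0.26, 0.39 and 0.30 in the lowest quintile of protein-coding expression, and narrow at high expression, with 0.16, 0.22 and 0.21 in the highest.

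The 250 bases before the start of 4 genes are shown as examples of CpG-rich and CpG-poor windows, 2 of genes that rose and 2 of genes that fell (chosen after their values were seen). Capitals mark each CG dinucleotide, and the strand is that of the gene.
Hsp90b1, chr10:86705445-86705694, minus strand: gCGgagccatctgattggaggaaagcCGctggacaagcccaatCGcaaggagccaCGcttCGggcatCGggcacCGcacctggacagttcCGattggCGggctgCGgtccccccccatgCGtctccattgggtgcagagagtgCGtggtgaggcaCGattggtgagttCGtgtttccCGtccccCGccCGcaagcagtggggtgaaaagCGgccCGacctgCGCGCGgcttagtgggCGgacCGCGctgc
Tra2a, chr6:49264053-49264302, minus strand: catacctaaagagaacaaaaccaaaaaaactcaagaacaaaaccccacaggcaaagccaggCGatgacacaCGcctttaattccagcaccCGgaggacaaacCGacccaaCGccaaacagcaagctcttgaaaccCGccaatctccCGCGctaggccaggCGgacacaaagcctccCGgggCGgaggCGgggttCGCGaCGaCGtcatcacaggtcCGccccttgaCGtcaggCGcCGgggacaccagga
Slco1c1, chr6:141524104-141524353, plus strand: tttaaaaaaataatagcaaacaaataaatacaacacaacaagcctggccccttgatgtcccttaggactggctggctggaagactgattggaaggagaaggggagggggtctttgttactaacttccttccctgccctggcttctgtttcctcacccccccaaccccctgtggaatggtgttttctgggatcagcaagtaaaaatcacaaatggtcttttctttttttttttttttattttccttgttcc
Vmn2r79, chr7:86996215-86996464, plus strand: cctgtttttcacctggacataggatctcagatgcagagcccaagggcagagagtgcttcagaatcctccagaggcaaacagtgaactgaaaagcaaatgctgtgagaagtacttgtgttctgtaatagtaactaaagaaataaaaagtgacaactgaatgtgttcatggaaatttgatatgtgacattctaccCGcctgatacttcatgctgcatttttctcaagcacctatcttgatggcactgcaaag
Hsp90b1 has 25 CG dinucleotides, a number reached by 10.7% of the 32851 promoter windows in the table, and Tra2a has 20, reached by 17.9%. Slco1c1 has 0, as have 7.87% of windows, and Vmn2r79 has 1, with 18.8% at 1 or fewer. By the ratio of observed to expected CpG, Hsp90b1 is at 0.83 and Tra2a at 0.93, while genes that fell and are named below, Hnrnpa2b1 (1.25), Srsf6 (1.23) and Prpf3 (1.20), have higher ratios. These counts describe the letters in the window and say nothing of methylation in these cells.

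Hsp90b1 encodes the chaperone GRP94 of the endoplasmic reticulum, and its RNA stood at 1070.0 and 1109 CPM against 406 and 392 CPM (1.45 ± 0.03, edgeR adjusted p 3.89e-29). Slco1c1 encodes a thyroid hormone transporter of the brain's vessels, and its RNA stood at 3.81 and 4.76 CPM against 72.2 and 74.7 CPM (−4.11 ± 0.08, edgeR adjusted p 1.62e-32). No other gene overlaps Slco1c1. Its intronic repeat reads moved alike, at 4.60 and 6.03 CPM against 97.5 and 99.1 CPM.

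Repeat reads outside exons differed by the place of the copy. Each of the deposited repeat copies was placed by its distance to annotated genes, and repeat reads were summed as CPM of the gene table, leaving out 7 copies at the ribosomal DNA locus of chromosome 17, which held 9.35% to 10.3% of all repeat reads with the deletion and 4.84% to 5.34% without it. Copies touching an exon gave 120812 and 128564 CPM with the deletion against 115211 and 119738 CPM without it. Copies inside introns gave 421796 and 433841 CPM against 515883 and 526561 CPM, 82.1% of the full-length mean.

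Outside genes the difference was wider than in introns, though it did not grow step by step with distance. Copies within 5 kb after a gene gave 18809 and 19355 CPM against 33627 and 34013 CPM, or 56.4% of the full-length mean, and those within 5 kb before a gene 9365 and 10609.9 CPM against 14937 and 15652 CPM, or 65.3%. Between 5 and 50 kb from a gene the values were 28251 and 30379.5 CPM against 52211 and 53007 CPM, or 55.7%. Over 50 kb from any gene they were 6935 and 7333 CPM against 14403 and 14641 CPM, or 49.1%. The groups did not overlap in any of the 6 places. The order of places is the same under any scaling, which moves all of them by 1 factor.

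**Figure D3:**
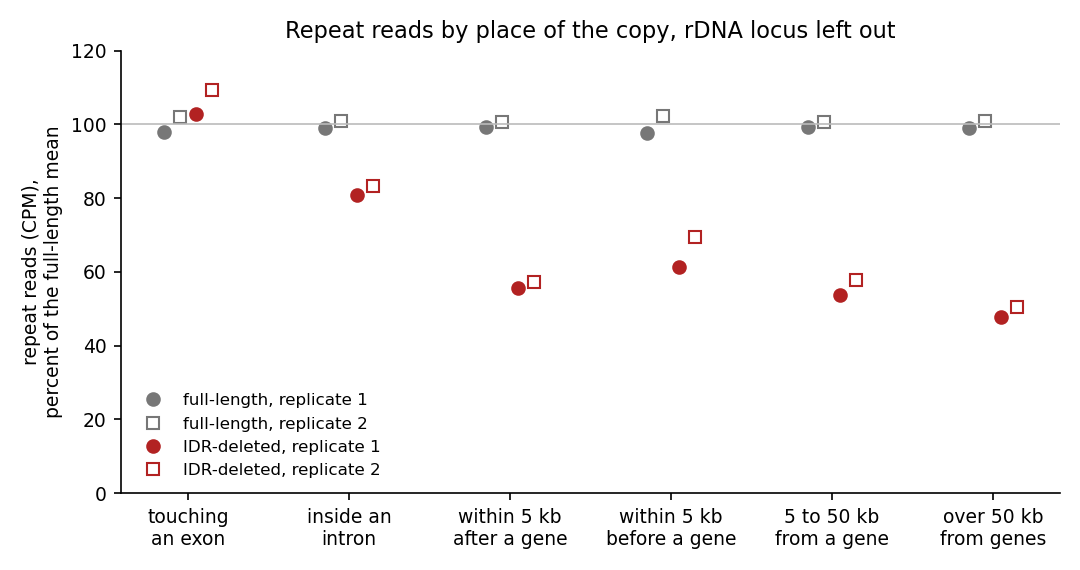
Repeat reads by place of the repeat copy relative to genes (horizontal), as a percentage of the mean of the 2 full-length libraries (vertical), with 1 point per library and the ribosomal DNA locus left out. The IDR-deleted libraries (red) average 106% at exons, 82.1% in introns and 49.1% over 50 kb from any gene, on the scale of gene reads, and ERCC scaling would lower all red points by 1 common factor.

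The falls outside exons did not rest on a few copies or 1 chromosome, but the order of places did not hold on every chromosome. Medians over chromosomes were −0.27 for introns, −0.69 before genes, −0.85 after genes, −0.90 at 5 to 50 kb and −1.01 beyond 50 kb. On chromosome 19, however, the log2 ratio was −0.54 beyond 50 kb and −1.03 after genes. Over the 20 nuclear chromosomes other than Y, both IDR-deleted libraries lay below both full-length ones in 20 for introns, for 5 kb after genes, for 5 to 50 kb and for over 50 kb, and in 19 for 5 kb before genes, where chromosome 18 was the exception (log2 ratio 0.03). For copies touching exons 7 chromosomes were lower and 8 higher. Without the 1000 copies richest in reads of each place the log2 ratios were −0.28 for introns, −0.81 after genes, −0.69 before genes, −0.90 at 5 to 50 kb, −1.04 beyond 50 kb and −0.08 at exons, so only the small exon value changed sign.

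Each place was also split into 12 repeat classes. Of the 72 combinations 63 (87.5%) passed edgeR's test, 59 (81.9%) downward and 4 (5.56%) upward. Without the ribosomal DNA locus 61 fell and 2 rose, satellites and simple repeats touching exons (0.08 and 0.29), both negative with ERCC scaling, and TMM over the combinations themselves, which sets their own typical value to 0, gave 33 rises and 32 falls. L1, the autonomous LINE family, beyond 50 kb gave 4401 and 4513 CPM against 8942 and 8954 CPM, a log2 fold change of −1.01 ± 0.02, and inside introns −0.46 ± 0.04. Within 5 kb after genes, within 5 kb before genes and at 5 to 50 kb L1 had −0.97, −1.02 and −0.95. Outside genes its fall thus did not grow with distance. That of DNA transposons did, with −0.92, −1.01 and −1.09 in the same places and −1.37 beyond 50 kb. ERVK elements, endogenous retroviruses that are silenced by lysine 9 methylation in stem cells, beyond 50 kb gave 874 and 906 CPM against 1820.4 and 1838 CPM (−1.04 ± 0.02), and inside introns −0.46 ± 0.03. SINE B2, short elements made by RNA polymerase III or within other transcripts, fell less: by 0.60 ± 0.07 beyond 50 kb and by 0.15 ± 0.02 inside introns, with −0.05 at 5 to 50 kb and 0.00 within 5 kb before genes, neither of which passed.

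**Figure D4:**
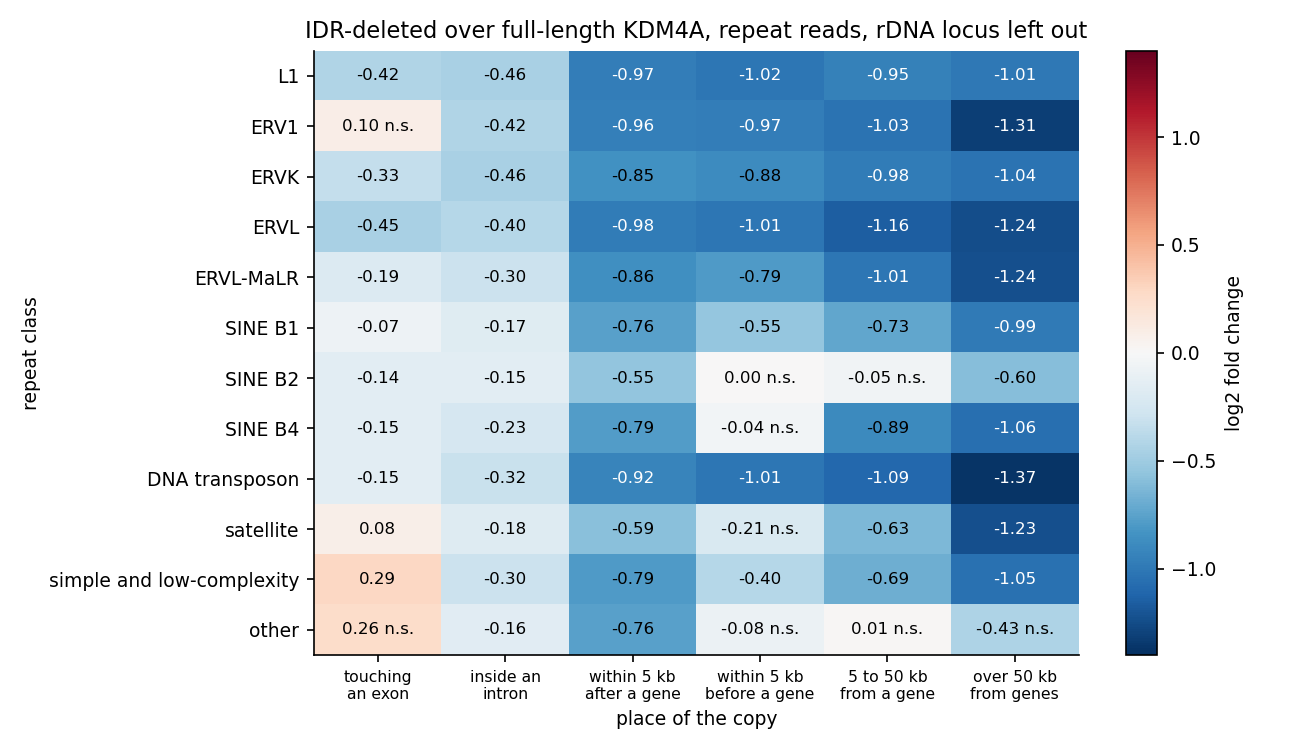
Log2 fold change of repeat reads (IDR-deleted over full-length KDM4A, on the scale of gene reads, ribosomal DNA locus left out) by repeat class (vertical) and place of the copy (horizontal), where n.s. marks values whose edgeR adjusted p was not under 0.05. Values go from −0.46 or above in introns to −1.37 for DNA transposons beyond 50 kb, and SINE B2 shows the smallest falls of the transposon classes beyond 50 kb. With ERCC scaling the positive values at exons turn negative.

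Repeat families were also summed over all places. With TMM over families, which sets the typical family to 0, 34 of 60 passed (56.7%), 15 (25%) upward and 19 (31.7%) downward. With gene library sizes the count was 47, of which 43 fell, and with ERCC scaling 1 rose and 55 fell. Without full-length replicate 1 the count was 27, of which 17 rose and 10 fell. L1 stood at 141356 and 143567 CPM of family reads against 177490.0 and 171247, a fall of 0.29 ± 0.02 on the log2 scale (edgeR adjusted p 1.24e-10). ERVL fell by 0.29 ± 0.02 and ERVK by 0.26 ± 0.03. Small old families fell too, Helitron by 0.46 ± 0.07, tRNA-RTE by 0.42 ± 0.08 and RTE-BovB by 0.29 ± 0.09, while I-Jockey (−0.57 ± 0.22, edgeR adjusted p 0.0346) lost its call without IDR-deleted replicate 2, without full-length replicate 1 or without full-length replicate 2 (edgeR adjusted p 0.186, 0.0783 and 0.103), as in a fit of the 4 libraries alone (0.0525). RTE-BovB lost its call without full-length replicate 1 (adjusted p 0.106). Copies outside genes alone were scaled to their own typical family, so a fall shared by most families does not show there. On that scale L1 (−0.14), ERVL (−0.27) and RTE-BovB (−0.80) still fell, while Helitron (−0.45, edgeR adjusted p 0.197), tRNA-RTE (−0.27, 0.658) and ERVK (−0.11, 0.368) did not pass. On the scale of gene reads, copies beyond 50 kb had −1.01 for L1 and −1.04 for ERVK.

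The rises of several families depended on which copies were counted. The family hAT-Tip100, a DNA transposon, rose by 0.91 ± 0.21 but had −0.16 without the ribosomal DNA locus and −0.05 with ERCC scaling. Ribosomal RNA copies gave 9365 and 12398 against 2221 and 4045 CPM of family reads (1.80 ± 0.52, edgeR adjusted p 0.0173), and the call was lost without the ribosomal DNA locus (adjusted p 0.0565), without IDR-deleted replicate 2 (0.0659), without full-length replicate 1 (0.101), with ERCC scaling (0.141) or in a fit of the 4 libraries alone (0.11). Copies of srpRNA, which resemble the RNA of the signal recognition particle, rose by 1.34 ± 0.12 over all places. Among copies outside genes, scaled to their own typical family, they had −0.22 and did not pass (edgeR adjusted p 0.18). Satellite/Y-chromosome copies, named so by the annotation, rose by 0.90 ± 0.06, but had −0.05 with ERCC scaling. Outside genes, scaled likewise to the typical family there, they had −0.16 and did not pass (edgeR adjusted p 0.464). Simple repeats rose by 0.33 ± 0.03 and fell by 0.62 with ERCC scaling. The snRNA family did not pass (0.84 ± 0.57, edgeR adjusted p 0.217), and its second library was the higher in each group, 25865 against 15219.7 and 14884 against 8099.5 CPM of family reads.

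Repeat reads inside introns stand in for unspliced RNA of the host gene, although a repeat can also be transcribed on its own. They were counted for 18304 host genes, of which 10128 (55.3%) passed edgeR's test, 3343 (18.3%) upward and 6785 (37.1%) downward, on the scale of gene reads. Scaled to their own typical gene 4680 rose and 5383 fell, and with ERCC scaling 592 rose and 12313 fell. The intronic median was −0.22 over all hosts. In the 16484 genes with both measures it was −0.19, against 0.07 for exonic reads, and the intronic value was the lower in 69.5% of them. Called in both measures were 6955 genes: 2800 rose in both, 3348 fell in both, 739 rose in exons and fell in introns, and 68 did the reverse. Across genes the measures correlated at 0.66, as a description, since both come from the same libraries.

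The gap between introns and exons was widest in the longest genes. In protein-coding host genes with both measures the intronic median was −0.10, −0.03, −0.02, −0.12 and −0.37 from the shortest to the longest quintile, and the exonic median 0.14, 0.17, 0.19, 0.14 and 0.01. In the longest quintile, from 84.1 to 2961 kb, 60.1% of genes fell in introns and 16.7% rose, against 22.7% and 14% in the shortest. The intronic value was below the exonic one in 65.5% of genes in the shortest quintile and 80.8% in the longest. Summed over the longest quintile, intronic repeat reads were 195703 and 201737 CPM against 261516 and 267121 CPM, while exonic reads were 281197 and 280450 CPM against 266633 and 263066 CPM. Neither pair of groups overlapped, and they moved in opposite directions, although with ERCC scaling both are lower with the deletion.

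Dmd, the dystrophin gene (84 exons, 2257 kb, 5 overlapping entries), showed both directions within 1 gene. Its exonic reads were 104 and 107 CPM against 84.9 and 86.6 CPM (0.30 ± 0.05, edgeR adjusted p 5.46e-06, −0.35 with ERCC scaling). Its intronic repeat reads were 129 and 131 CPM against 181 and 188 CPM (−0.50 ± 0.04, adjusted p 1.03e-14). Supt16, a subunit of the histone chaperone FACT, did likewise, with 663 and 686 CPM against 478 and 483 CPM in exons and 82.5 and 86.5 CPM against 104 and 106 CPM in introns. Its exonic rise turns to −0.16 with ERCC scaling.

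Among the genes called in opposite directions with the largest changes were Rpl37rt and Slc22a14, up in exons, and Wnt3 and Rassf5, down in exons. Rpl37rt, a retrotransposed ribosomal protein copy that no other gene overlaps, gave 27.0 and 27.4 CPM against 15.2 and 15.7 CPM in exons and 2.01 and 2.33 CPM against 6.17 and 6.72 CPM in introns. Slc22a14, an organic ion transporter gene that 8 other entries overlap, gave 2.30 and 1.75 CPM against 0.512 and 0.971 CPM in exons and 6.58 and 7.09 CPM against 18.3 and 18.1 CPM in introns. Wnt3, a secreted ligand of the WNT pathway, gave 1.63 and 1.40 CPM against 3.14 and 3.40 CPM in exons and 2.42 and 2.05 CPM against 1.16 and 0.627 CPM in introns. Rassf5, a RAS effector, gave 15.0 and 16.4 CPM against 38.2 and 34.0 CPM in exons and 7.83 and 7.33 CPM against 4.07 and 4.35 CPM in introns. All of these differences passed edgeR's test with TMM, though Rpl37rt loses its exonic call with ERCC scaling (0.16, edgeR adjusted p 0.163), as does Nol4 (0.15, 0.628), and Slc22a14 and Wnt3 rest on few reads. Nol4 and Zfp677 (exons up) and Jazf1 and Slc5a2 (exons down) completed the named set.

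Gene lists by function described what the exonic reads of single pathways did, and each count stands beside the 24.6% of all genes that rose and the 25.9% that fell. Of protein-coding genes 38% rose and 24.1% fell, and in their highest quintile of expression 59.1% rose and 23.3% fell, with a median of 0.21, so counts near these shares are no result about a list. Intronic counts stand beside 18.3% of all host genes that rose and 37.1% that fell. Of protein-coding hosts 21.7% rose and 36.5% fell in introns, and intronic counts near these shares are likewise no result. Of 38 writers, readers and erasers of lysine 9 and lysine 36 methylation, the marks KDM4A acts on, 16 rose and 12 fell, with a median of 0.07 (−0.58 with ERCC scaling), and in introns 9 of 36 rose and 17 fell. Mphosph8, the chromodomain subunit of the HUSH silencing complex, was at 226 and 244 CPM against 113 and 109.6 CPM (1.08 ± 0.05). Iws1, a partner of the elongation factor SPT6, was at 374 and 389 CPM against 257 and 260.5 CPM, a rise of 0.56 that is −0.09 and loses its call with ERCC scaling (edgeR adjusted p 0.171). Nsd1, a lysine 36 methyltransferase, was at 754 and 749 CPM against 1394 and 1383 CPM (−0.89 ± 0.03), and Atf7ip, the stabiliser of the lysine 9 methyltransferase SETDB1, at 220.3 and 219 CPM against 339.6 and 346 CPM. In introns the log2 fold change was −1.43 for Nsd1 and −0.91 for Atf7ip.

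In the splicing lists rises outnumbered falls in exons, near the shares of well expressed protein-coding genes. Falls outnumbered rises in introns, as they did in protein-coding hosts as a whole (21.7% rose, 36.5% fell). Of 41 SR and hnRNP factors 22 rose and 10 fell (median 0.11, −0.54 with ERCC scaling), but 4 of 38 rose and 20 fell in introns. Of 35 core spliceosome genes 17 rose and 7 fell (median 0.12, −0.53 with ERCC scaling), with 5 of 34 rising and 18 falling in introns. Tra2a, an activator of exon inclusion, was at 605 and 664 CPM against 325 and 340.5 CPM and rose in both measures (0.93 ± 0.05 and 0.78 ± 0.04), and Luc7l3, a U1-associated protein, rose by 0.46 in exons (−0.19 with ERCC scaling). Hnrnpa2b1 (829.8 and 871 CPM against 1397 and 1448 CPM) and Srsf6 (165 and 176 CPM against 250.5 and 252 CPM) fell in both. In the core list U2af1, the 3′ splice site factor, rose from 81.2 and 82.5 CPM to 144 and 153 CPM, Snrpc, a U1 subunit, rose by 0.91, and the tri-snRNP genes Prpf31 and Prpf3 fell by 0.69 and 0.44.

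Of 37 elongation genes 23 rose and 6 fell, the list with the highest median of the transcription and splicing lists (0.28, −0.37 with ERCC scaling), and 10 of 35 rose and 12 fell in introns. Top2b, a topoisomerase that relieves torsion in long genes, was at 206 and 210.0 CPM against 127 and 126 CPM, a rise that loses its call with ERCC scaling (0.06, edgeR adjusted p 0.398). The transcription kinase Cdk12 was at 314 and 308 CPM against 489 and 480.2 CPM and the pausing factor Nelfa at 52.2 and 49.0 CPM against 95.0 and 88.9 CPM. Of 36 genes of cleavage, polyadenylation and termination, whose products release RNA at gene ends, 17 rose and 10 fell (median 0.11, −0.54 with ERCC scaling). Ints6, an Integrator subunit, was at 67.7 and 66.9 CPM against 156 and 163 CPM (−1.25 ± 0.05), and Cstf3 at 85.3 and 87.1 CPM against 169 and 166 CPM. Ints10, another Integrator subunit, rose by 0.71 and Scaf4, which prevents early termination, by 0.56. With ERCC scaling both lose their call, at 0.06 (edgeR adjusted p 0.447) and −0.09 (0.191).

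Long synaptic and adhesion genes mostly fell in introns. Of 46 members with a median span of 1135 kb 42 were tested, and 1 rose and 16 fell in exons (median −0.21). In introns 36 of 42 fell and 1 rose, with a median of −0.73, beside 37.1% of all host genes that fell. In the longest quintile of protein-coding hosts 60.1% fell, with a median of −0.40, so falls are common in long genes as a whole. Tenm4, a teneurin adhesion protein, was at 176 and 191 CPM against 619 and 639.5 CPM in introns (−1.78 ± 0.03) and at 78.4 and 78.8 CPM against 170.2 and 167 CPM in exons. It is overlapped by 11 other entries.

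Of 39 tested genes among 40 listed as intronless, 25 rose and 5 fell, with a median of 0.69 (0.04 with ERCC scaling). The list is not intronless throughout in the annotation: Hspa2 and Pura have 2 exons there, and 6 members had intronic repeat reads tested. Hspa2 rose from 7.17 and 7.79 CPM to 26.3 and 26.1 CPM, and the single-stranded DNA binding genes Purb (80.2 and 82.4 CPM against 113 and 119 CPM) and Pura (62.1 and 66.0 CPM against 85.4 and 93.7 CPM) fell. This list holds mostly developmental and stress regulators, and protein-coding genes with 1 exon as a whole had a median of 0.09. Of 21 tested small RNA host genes 6 rose and 6 fell (median −0.14). Snhg11 (221 and 218 CPM against 132 and 133 CPM) and Meg3 (1149.9 and 1158 CPM against 810.0 and 828 CPM) rose, but with ERCC scaling Meg3 has −0.16 and Snhg11 loses its call (0.07, edgeR adjusted p 0.324). Taf1d (529.5 and 531 CPM against 838 and 829 CPM) and Mirg (109 and 115 CPM against 205 and 199 CPM) fell, and 12 other entries overlap Taf1d and 15 overlap Mirg.

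Deletion of the IDR in the other 3 demethylases was set beside it by testing the difference between deletion effects in 1 edgeR fit, each demethylase with its own full-length libraries. The KDM4A effect differed from that of KDM4B in 9654 genes (31.1%), 4796 (15.4%) higher and 4858 (15.6%) lower. It differed from that of KDM6A in 14099 (45.4%), 6904 (22.2%) higher and 7195 (23.2%) lower, and from that of KDM6B in 11866 (38.2%), 6163 (19.8%) higher and 5703 (18.4%) lower. By ERCC scaling most differences were downward, with 737 higher and 11982 lower against KDM4B, 3109 and 12064 against KDM6A, and 2874 and 8612 against KDM6B.

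The class pattern was among the differences. Of 5035 long noncoding genes the KDM4A effect was higher in 161 and lower in 899 than that of KDM4B, higher in 406 and lower in 1226 than that of KDM6A, and higher in 410 and lower in 885 than that of KDM6B. Their median was −0.38 for KDM4A and −0.04, −0.01 and −0.13 for the other 3. Of 2465 protein-coding genes with over 20 exons it was higher in 1012 and lower in 399 than that of KDM4B, with medians of 0.19 against 0.02, −0.04 and 0.00 in the 3 others.

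Repeat places differed as well. Of the 72 combinations of repeat class and place 52 (72.2%) differed from KDM4B, 46 (63.9%) of them lower for KDM4A and 6 (8.33%) higher. Against KDM6A 62 (86.1%) differed, 60 (83.3%) of them lower and 2 (2.78%) higher, and against KDM6B 58 (80.6%), 45 (62.5%) of them lower and 13 (18.1%) higher. These counts include the ribosomal DNA locus, and the differences between demethylases were not tested without it. DNA transposons within 5 kb before genes, counted as higher than for KDM6B, had 0.62 for KDM4A with the locus and −1.01 without it. With the locus left out, the log2 ratio of means beyond 50 kb from genes was −1.03 for KDM4A, −0.67 for KDM4B, 0.10 for KDM6A and 0.21 for KDM6B. In introns the values were −0.28, −0.18, 0.07 and −0.39, and of the 12 intronic classes 8 were lower for KDM4A than for KDM4B, 12 lower than for KDM6A and 1 lower than for KDM6B. KDM6B thus also had fewer intronic reads with the deletion, and KDM4B had fewer reads beyond genes, to a smaller size. Of 60 repeat families 15 (25%), 24 (40%) and 18 (30%) differed from KDM4B, KDM6A and KDM6B.

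Intronic reads per host gene differed from KDM4B in 6438 (35.2%), with 1917 (10.5%) higher and 4521 (24.7%) lower, from KDM6A in 9294 (50.8%), with 3126 (17.1%) higher and 6168 (33.7%) lower, and from KDM6B in 8687 (47.5%), with 4646 (25.4%) higher and 4041 (22.1%) lower. Over all protein-coding hosts of the longest quintile the intronic median was −0.40 for KDM4A, −0.20 for KDM4B, 0.01 for KDM6A and −0.32 for KDM6B.

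**Figure D5:**
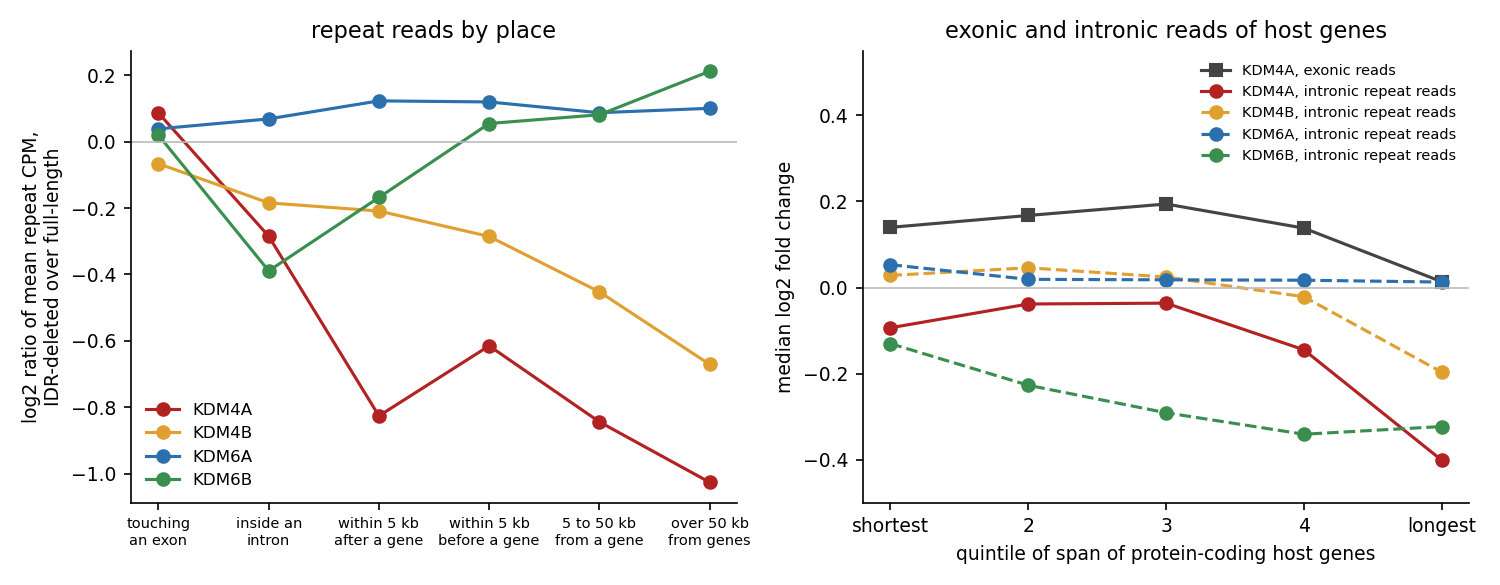
Left, log2 ratio of mean repeat CPM by place of the copy for each demethylase (IDR-deleted over full-length, 2 libraries each), ribosomal DNA locus left out. Right, median log2 fold change of intronic repeat reads by quintile of span of protein-coding host genes for each demethylase. Exonic reads are shown for KDM4A in the hosts that also have them. KDM4A falls to −1.03 beyond 50 kb from genes, where KDM4B is at −0.67, KDM6A at 0.10 and KDM6B at 0.21, all on the scale of gene reads; positive KDM4A values turn negative with ERCC scaling.

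Single genes showed where the deletions went separate ways. Slco1c1 had a log2 fold change of −4.11 with KDM4A, −2.66 with KDM4B, 0.77 with KDM6A and 2.98 with KDM6B. Ttn followed with −1.47, −0.83, 0.77 and 0.84. Sms, the spermine synthase gene, rose with KDM4A (364 and 359 CPM against 155 and 161 CPM) and had −0.90 with KDM4B, a difference of 2.09 between deletion effects. Slc13a5, a citrate transporter gene, had −0.39 with KDM4A (33.9 and 35.8 CPM against 45.9 and 45.7 CPM) and 1.85 with KDM4B, a difference of −2.25. Peg10, an imprinted gene derived from a retrotransposon, had 1.48 with KDM4A (154 and 149 CPM against 54.2 and 54.5 CPM) and −0.76 with KDM6B. Cenpf, a kinetochore gene, was at 1429 and 1453 CPM against 711 and 713 CPM, or 1.02 with KDM4A, 0.48 with KDM4B and −0.15 with KDM6B.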

How the data were processed

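Chromatin-associated RNA of 16 libraries was deposited as raw read counts per gene and per repeat copy. Per the submitters' processing notes, the processing used HISAT2, featureCounts 2.0.3 and the genome GRCm39, without a role given for each. Per the file headers, the count of each feature took reads of mapping quality 30 or more, counted each read of a pair, and ignored strand. Which library step introduced the ERCC RNAs is not given in the sources used here.

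From these counts, genes passing edgeR 4.0.16's filterByExpr (minimum count 10) were fitted in R 4.3.3 with TMM scaling and the quasi-likelihood test over 8 group means (8 residual degrees of freedom). P-values were Benjamini-Hochberg adjusted over all features tested, with a threshold of 0.05. The 92 ERCC rows and 2 other control rows stayed out of library sizes and tests. Repeat copies were summed per family, per host gene (copies inside 1 intron) and per class and place. Strata carry counts and medians with no test. Exact permutation of 2 against 2 libraries cannot go below p = 0.33, so no single-value test was made. Gene classes came from GENCODE M21 (52000 of 56941 entries matched by identifier) and promoters from RefSeq GRCm38.p6, by symbol; GRCm38 and GRCm39 coordinates were not mixed. Named genes had the smallest p each way in their class, stratum, list or difference, with at least 2-fold change and 5 CPM outside the lists; families and genes with opposite exon and intron calls were named by size. The members and lists were chosen with earlier results of these data known. The fitting code was tested on simulated counts. DESeq2 1.42.0, other scalings, filters, thinned counts, a replicate block and leaving out each library were alternatives.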

Additional observations from a re-analysis of the deposited data

Results flagged for a closer look

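Values in this paragraph are here because the effect of deleting the IDR differed between KDM4A and another demethylase by edgeR's test of that difference; their explanations were not weighed. Combinations of repeat class and place were counted here with the ribosomal DNA locus. Against KDM4B the effect differed in 9654 genes, and 46 combinations were lower for KDM4A. The named genes were higher for KDM4A by 2.09 (Sms), 1.63 (Adam23) and 1.71 (Mlf2) on the log2 scale, or had differences of −2.25 (Slc13a5), −1.60 (Pck2) and −1.29 (Unc13b). Against KDM6A the effect differed in 14099 genes, and 60 combinations were lower. The differences were 2.95 for Txnip, 2.59 for the kinesin gene Kif21b, 1.86 for Wsb1, −2.24 for Ttn, −2.20 for Kcnq1ot1 and −4.88 for Slco1c1. Against KDM6B the effect differed in 11866 genes, and 45 combinations were lower. The differences were 2.24 for Peg10, 1.36 for Hsp90b1, 1.17 for Cenpf, −7.09 for Slco1c1, −2.31 for Ttn and −1.59 for Kcnq1ot1.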

How the results depend on the processing

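Counts of calls, both directions together, stayed within 1.5 times the reported count in 60 of 62 settings. ERCC scaling gave 56 repeat families in place of 34, and hosts without overlap gave 4448 called hosts of 8800 (1657 rose, 2791 fell). Directions moved more than totals. ERCC scaling gave 1464 gene rises and 17766 falls in place of 7639 and 8034, and 592 host rises and 12313 falls in place of 3343 and 6785. TMM over combinations gave 33 rises and 32 falls in place of 4 and 59. Beside the 15673 genes, DESeq2 called 15081, median-ratio factors 15670, no filter 15392 of 46753, the 4 KDM4A libraries alone 15007 and thinned counts 15288. With the replicate number as a replicate block 16120 genes (7969 rose, 8151 fell), 38 families, 10320 hosts and 65 combinations were called. Under the block Kdm4b (−0.13, edgeR adjusted p 0.0125) and the snRNA family (0.85, 0.0036) also passed, and the rRNA family had an adjusted p of 0.00126. Deviations of same-numbered libraries correlated across 31057 genes at 0.123 for KDM4A and at 0.129, 0.144 and −0.0026 for KDM4B, KDM6A and KDM6B. Among the groups of KDM4A, KDM4B and KDM6A, within and between demethylases, all 15 such correlations lay at 0.103 to 0.172. Pairs with a KDM6B group lay apart, between −0.0026 and 0.034. The cause of this pattern was not tested. With the block the KDM4A effect differed from that of KDM6B in 12549 genes in place of 11866. No label ties the numbers to a culture, so the main fit did not take them as pairing. In all 8 groups, however, replicate 2 had the higher share of small RNA reads and the lower share of protein-coding reads, and the cause was not tested. Leaving out each library gave 13589 to 13804 genes (7047 rose and 6757 fell without IDR-deleted replicate 2), 27 to 32 families, 8861 to 9075 hosts and 61 to 63 combinations.

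Of 42 stratum differences 0 reversed and 29 moved beyond the spread between libraries. Longest minus shortest span, −0.10, was −0.091 with fixed limits, −0.031 without overlaps, −0.14 in the upper expression part, −0.11 thinned and −0.13 to −0.089 leaving out libraries. Over 20 exons minus 1, 0.10, was 0.07 to 0.12. Long noncoding minus protein-coding, −0.50, was −0.71, −0.53, −0.52 and −0.55 to −0.48 in the last 4 settings. Over 0.5 in repeats minus none, −0.32, was −0.50 in protein-coding genes, −0.44 without overlaps, −0.43 in the upper expression part, −0.33 thinned and −0.39 to −0.32 leaving out libraries. Highest minus lowest CpG tertile, 0.30, was 0.29 with ERCC scaling, 0.46 without overlaps, 0.11 in the upper expression part, 0.28 thinned and 0.28 to 0.32 leaving out libraries. The causes were not tested.

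With ERCC scaling these values reversed: Kdm4a −0.17, Kdm6b −0.65, Iws1 −0.093, Luc7l3 −0.19, Scaf4 −0.091, Supt16 −0.16, Dmd −0.35, Meg3 −0.16, simple repeats −0.62, Satellite/Y-chromosome −0.052 and hAT-Tip100 −0.048. Among copies outside genes, scaled to their own typical family, Satellite/Y-chromosome (−0.16) and srpRNA (−0.22) turned negative but did not pass. Leaving out the ribosomal DNA locus, chosen after seeing the data, reversed hAT-Tip100 (−0.16). Depth limits low genes most, and 2 libraries a group limit all intervals.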
